A study of Mus musculus with 2 samples.

Results

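The enzymes of heme biosynthesis were followed as 8 genes (*Alas1*, *Alas2*, *Alad*, *Uros*, *Urod*, *Cpox*, *Ppox* and *Fech*) among the 29453 genes counted in single cells of *Gata1*- chimeric mouse embryos. They were chosen by name, from the textbook pathway and by no rule on measured values, though with earlier results of these data known, and 1 further enzyme of the pathway is not analysed here. Mouse ESCs with a constitutive tdTom marker and a 38 base pair frameshift in exon 4 of *Gata1*, all from 1 clone, had been injected into wildtype C57BL/6 blastocysts, and 6 whole chimeric embryos were pooled and sorted into a tdTom+ fraction (*Gata1*- injected cells, labelled E8.5) and a tdTom- fraction (wildtype host cells, labelled E8.6 although the embryos were the same). Each fraction gave 1 library made with 10x v3 chemistry, which tags the 3′ end of polyadenylated RNA with unique molecular identifiers (UMIs), so the fractions differ in genotype, in origin (injected or host) and in library, and these cannot be told apart. With 1 library a fraction no test between fractions was possible. All intervals below are exact 95% intervals for counting error only, and no p-value is given.

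Heme is assembled in a pathway that starts and ends in the mitochondrion and passes through the cytosol between. *Alas1* and *Alas2* encode the 2 forms of aminolevulinate synthase, the first and rate-limiting enzyme, of which ALAS1 serves all cells and ALAS2 serves red cells. *Alad*, *Uros* and *Urod* encode cytosolic enzymes that turn aminolevulinate into coproporphyrinogen. *Cpox* and *Ppox* encode the mitochondrial oxidases that follow, and *Fech* encodes ferrochelatase, which inserts the iron. Red cells are the main users of the pathway because each globin chain carries a heme, and GATA1 is the transcription factor on which erythroid maturation depends.

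The sequence upstream of the genes was searched for motifs of the GATA kind, the letters that GATA factors read. In the RefSeq promoter table (build GRCm38.p6), 7 of the 8 genes were searched, all but *Fech*, and these gave 10 windows of 250 bases that end at a transcript start. The GATA hexamers searched, on both strands, were the letters TGATAA along with the letters TGATAG, then the letters AGATAA along with the letters AGATAG. The shorter motif CACCC was searched likewise, the core letters read by factors such as KLF1. Of the 10 windows, 3 held a GATA hexamer, which is near the 26.5% of all 32851 windows in the table that did. Those 3, of *Alas2*, *Uros* and *Cpox*, are shown with a window each of *Alas1* and *Ppox*, which held none. Capitals mark a GATA hexamer or CACCC, in either orientation (a hexamer on the opposite strand reads TTATCT in *Alas2*, or CTATCT in other windows, or again TTATCA, and GGGTG is the reverse of the shorter motif).
Alas2, chrX:150547167-150547416, plus strand: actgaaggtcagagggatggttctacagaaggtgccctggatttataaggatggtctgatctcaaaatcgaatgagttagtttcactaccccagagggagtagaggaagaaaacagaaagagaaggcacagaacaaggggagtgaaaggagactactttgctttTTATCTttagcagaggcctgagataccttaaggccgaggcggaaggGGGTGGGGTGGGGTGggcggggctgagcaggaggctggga
Cpox, chr16:58669958-58670207, plus strand: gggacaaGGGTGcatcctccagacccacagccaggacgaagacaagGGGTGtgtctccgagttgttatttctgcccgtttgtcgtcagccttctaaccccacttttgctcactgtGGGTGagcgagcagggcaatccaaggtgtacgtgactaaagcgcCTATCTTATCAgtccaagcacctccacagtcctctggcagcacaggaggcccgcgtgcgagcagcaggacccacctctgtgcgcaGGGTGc
Uros, chr7:133702501-133702750, minus strand: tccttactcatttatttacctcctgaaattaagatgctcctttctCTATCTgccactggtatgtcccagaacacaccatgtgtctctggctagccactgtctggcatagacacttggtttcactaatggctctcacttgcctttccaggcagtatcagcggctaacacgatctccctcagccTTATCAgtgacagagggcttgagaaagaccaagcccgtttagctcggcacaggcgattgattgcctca
Alas1, chr9:106247731-106247980, minus strand: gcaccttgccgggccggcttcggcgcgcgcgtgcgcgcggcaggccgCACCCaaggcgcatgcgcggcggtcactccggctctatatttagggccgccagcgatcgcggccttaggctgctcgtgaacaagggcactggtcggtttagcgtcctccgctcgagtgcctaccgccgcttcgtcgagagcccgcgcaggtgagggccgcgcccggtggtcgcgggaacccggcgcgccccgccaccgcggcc
Ppox, chr1:171281187-171281436, minus strand: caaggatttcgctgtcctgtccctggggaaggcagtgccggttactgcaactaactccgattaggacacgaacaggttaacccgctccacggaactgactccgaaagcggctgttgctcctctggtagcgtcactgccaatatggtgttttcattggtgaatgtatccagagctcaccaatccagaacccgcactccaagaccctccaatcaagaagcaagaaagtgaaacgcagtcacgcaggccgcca

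The window of *Alas2* held 1 GATA hexamer that began 86 bases before the start, and 3 copies of CACCC that began 40, 35 and 30 bases before it. That of *Cpox* held 2 GATA hexamers that overlap by 1 base and began 91 and 86 bases before the start, and 4 copies of CACCC. *Uros* has 2 starts in the table, and the window of the downstream start held 2 GATA hexamers, at 205 and 68 bases before it, while that of the upstream start held neither motif. At least 2 of the 4 hexamers stood in 6.40% of all windows, CACCC in 52.0%, and both kinds of motif in 11.8%. A match is a run of letters and not a binding site, and the windows of *Alad*, *Urod*, *Ppox* and both starts of *Alas1* without a hexamer say only that these letters are not there. Genes with and without a hexamer were both among those lower in tdTom+ blood cells, described below: *Alas2*, *Uros* and *Cpox*, with at least 1, were 9.02-fold, 4.91-fold and 2.51-fold lower, and *Ppox*, *Alad* and *Urod*, with none, 3.89-fold, 3.83-fold and 2.48-fold lower.

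The *Gata1* label was checked first. *Gata1* was at 26.9 CPM (spliced UMIs scaled to 1000000 a group; interval 25.2 to 28.7) in tdTom+ and 131 (127 to 136) in tdTom- blood cells, and 58.4% and 8.11% of its UMIs were unspliced. A 3′ tag lies outside the altered exon, so neither value can show the frameshift itself. The libraries held 8981 and 9252 barcodes (tdTom+ and tdTom-), of which 18 occurred in both, with medians of 17598 and 15996 spliced UMIs a cell. After removal of doublets, clusters named from fixed marker lists gave 1629 and 1479 blood cells, 511 and 372 endothelial-like cells and 6455 and 6875 non-blood cells. Heme genes, iron genes and globins were left out of the clustering. Almost all erythroid-like cells were tdTom- and almost all blood progenitor-like cells were tdTom+, so "blood" below compares mostly different stages: the median globin share of a blood cell's spliced UMIs was 1.37% (highest 9.07%) in tdTom+ and 9.25% (highest 27.4%) in tdTom- cells.

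In the GENCODE vM21 annotation of GRCm38, *Alas1* lies at chr9:106233455-106248654 (minus strand), *Alas2* at chrX:150547375-150570638 (plus), *Alad* at chr4:62509169-62519918 (minus) and *Urod* at chr4:116989965-116994413 (minus). *Uros* lies at chr7:133686243-133710072 (minus), *Cpox* at chr16:58670292-58717636 (plus) and *Ppox* at chr1:171275990-171281186 (minus). None overlaps a gene on its own strand, while *Alas1*, *Alas2*, *Uros*, *Cpox* and *Ppox* each overlap a gene on the opposite strand.

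In blood cells, *Alas2* and the enzymes downstream of it were lower in the *Gata1*- fraction, and *Alas1* was not. Of the 8 genes, 6 were at least 2-fold lower in tdTom+ than in tdTom- blood cells, where 3.17% of all 9482 genes with at least 100 UMIs were. The median log2 fold of the 8 was -1.63, against 0.22 over all those genes. The count was 6 under each of the alternatives run for it.

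*Alas2*, the erythroid synthase, stood furthest apart, at 27.0 CPM (25.3 to 28.8) in tdTom+ and 244 CPM (238 to 250) in tdTom- blood cells, 9.02-fold lower (log2 fold -3.17, interval -3.27 to -3.07). Its fold was at the 0.475th percentile of the genes compared. *Alas1*, the housekeeping synthase, was scarce in both, with 162 and 87 UMIs or 4.59 CPM (3.91 to 5.35) and 3.05 CPM (2.44 to 3.76), and its log2 fold was 0.59 (0.21 to 0.98). Of the 162 UMIs, 37 came from 87 myeloid-like cells, a class with 5 cells in tdTom-, and without myeloid-like and megakaryocyte-like cells the log2 fold was 0.34. Over sub-clusters, *Alas1* ran from 2.45 to 5.19 CPM in blood progenitor-like and from 1.90 to 4.46 CPM in erythroid-like cells, which overlap. *Alas2* thus made up 85.5% (83.3 to 87.5) of the synthase UMIs of tdTom+ and 98.8% (98.5 to 99.01) of those of tdTom- blood cells.

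Among the cytosolic enzymes, *Uros*, which closes the ring of uroporphyrinogen, was 4.91-fold lower in tdTom+ blood cells, at 15.6 CPM (14.3 to 16.97) against 76.7 CPM (73.5 to 79.97). *Alad*, which joins aminolevulinate in pairs to porphobilinogen, was 3.83-fold lower, at 146 CPM (142 to 150) against 560 CPM (551 to 569). *Urod*, which decarboxylates uroporphyrinogen, was 2.48-fold lower, at 111 CPM (108 to 115) against 276 CPM (270 to 282). The smallest of the 3 differences was that of *Urod*, and none of the intervals of the 3 folds overlapped another.

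Of the mitochondrial enzymes, *Ppox*, the protoporphyrinogen oxidase, stood at 31.1 CPM (29.3 to 33.0) in tdTom+ against 121 CPM (117 to 125) in tdTom- blood cells, 3.89-fold lower. *Cpox*, the coproporphyrinogen oxidase, was at 366 CPM (360 to 373) against 920 CPM (908 to 931), 2.51-fold lower. *Fech*, which makes the final product, was least apart, at 108 CPM (104 to 111) against 160 CPM (155 to 165), a log2 fold of -0.57 (-0.63 to -0.51) that stayed short of 2-fold. The order of the folds therefore did not follow the order of the steps: the first and a middle enzyme were furthest apart and the last was nearest.

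The levels also differed in the share of cells. With each cell thinned to 5000 spliced UMIs, which left out 14 tdTom+ and 38 tdTom- blood cells, *Alas2* had a UMI in 12.0% of tdTom+ and 65.9% of tdTom- blood cells (37.6% and 90.8% unthinned). In neural-like cells, which are not of the red cell line, the thinned shares were 0 of 980 cells, where a limit of 3 counts allows a share of cells with a UMI of up to 0.306%, and 1.46% of 1580 cells (0.100% and 3.604% unthinned), with median depths of 16627 and 14936 spliced UMIs in place of 21173 and 18886. For *Cpox* the thinned shares were 63.5% and 94.9% in blood and 16.0% and 18.9% in neural-like cells, and for *Uros* 6.63% and 30.7% in blood and 2.76% and 2.97% in neural-like cells. The 8 genes together took a median of 7.31 (5th to 95th percentile 1.21 to 17.2) of every 10000 UMIs of a tdTom+ blood cell and 24.0 (6.54 to 34.5) of a tdTom- blood cell, so the distributions overlapped, with the tdTom+ median near the 5th percentile of tdTom- cells.

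The question that the stage difference raises is whether the enzymes also differed between cells with the same globin share. Blood cells were put in bins of globin share under 1%, 1 to 3%, 3 to 10% and 10 to 30% (none reached 30%), which held 686, 623, 320 and 0 tdTom+ cells and 86, 55, 702 and 636 tdTom- cells. The lowest bin was mixed, with 485 blood progenitor-like, 86 myeloid-like and 113 unnamed cells of 686 in tdTom+ but 42 megakaryocyte-like and 24 unnamed cells of 86 in tdTom-. In the bin of 3 to 10%, 318 of 320 tdTom+ cells were blood progenitor-like and 701 of 702 tdTom- cells erythroid-like.

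**Figure D1:**
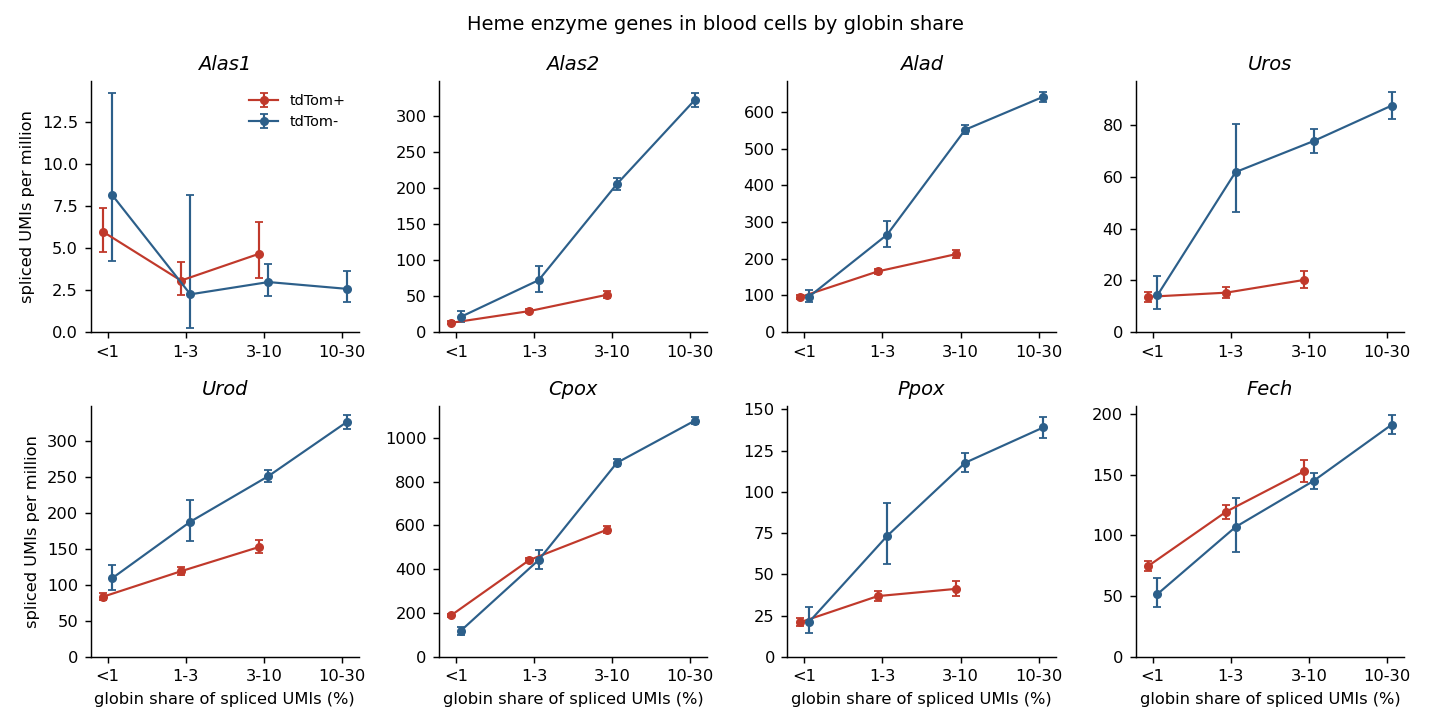
CPM of spliced UMIs (vertical axis, from 0) of each enzyme gene in blood cells by globin share (horizontal axis, percent of spliced UMIs), tdTom+ in red and tdTom- in blue, with exact 95% counting intervals as bars and 1 library a fraction. *Alas2*, *Alad*, *Uros* and *Ppox* separate as globin increases, from within 2-fold of each other under 1% to over 2-fold apart at 3 to 10%, while *Fech* is higher in tdTom+ under 1% (74.8 and 51.7 CPM) and close at 3 to 10% (153 and 145 CPM).

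Among cells with a globin share under 1% no enzyme gene was 2-fold lower in tdTom+ cells (3.73% of all genes compared were). *Alas2* stood at 12.9 CPM (tdTom+) and 21.1 CPM (tdTom-), *Alad* at 95.2 and 96.6 CPM, *Uros* at 13.7 and 14.3 CPM and *Ppox* at 20.8 and 21.1 CPM, the last 3 with intervals of the fold that held 0. *Cpox* was higher in tdTom+ cells, at 190 against 118 CPM (log2 fold 0.68, 0.46 to 0.91), and so was *Fech*, at 74.8 against 51.7 CPM (0.53, 0.20 to 0.89). The makeup of the bin bears on these values: without myeloid-like and megakaryocyte-like cells, the log2 folds were 0.75 for *Ppox*, -0.37 for *Alad*, -0.02 for *Urod*, 0.89 for *Fech* and -1.13 for *Alas1*, which has few UMIs there and passes the limit. The count of 0 in this bin was also lost with free RNA subtracted, where *Urod* was at -1.15, and with a mean over cells, where *Alas2* was at -1.005. The level subtracted is that of neural-like cells and includes what those cells express themselves. For *Urod* it was 66.2 CPM (tdTom+) and 70.9 CPM (tdTom-), beside 83.6 and 109 CPM in this bin.

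At 1 to 3% globin, 2 of the 8 were at least 2-fold lower in tdTom+ cells, where 3.04% of all genes were. These were *Uros*, at 15.3 against 62.0 CPM (log2 fold -2.02, -2.45 to -1.56), and *Alas2*, at 29.2 against 72.1 CPM (-1.31, -1.69 to -0.90). *Ppox* was just short of the limit, at 36.8 against 73.2 CPM (-0.99, -1.37 to -0.60). *Cpox* was level, at 442 and 443 CPM, and the tdTom- values of this bin rest on 55 cells. Of these, 43 were erythroid-like, 8 megakaryocyte-like and 3 blood progenitor-like, while 622 of 623 tdTom+ cells were blood progenitor-like. The folds of this bin thus compare mostly different cell classes. With free RNA subtracted, *Ppox* (-1.10), *Urod* (-1.15) and *Alad* (-1.01) passed the limit as well, which makes 5 of the 8, and *Ppox* also did with cells thinned to 5000 UMIs (-1.16). That subtraction also takes away what neural-like cells express themselves.

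At 3 to 10% globin, 4 of the 8 were at least 2-fold lower in tdTom+ cells, where 3.63% of all genes were. *Alas2* was at 51.9 against 205 CPM (log2 fold -1.98, -2.14 to -1.82), *Uros* at 20.2 against 74.0 CPM (-1.87, -2.13 to -1.62), *Ppox* at 41.2 against 118 CPM (-1.51, -1.70 to -1.33) and *Alad* at 213 against 552 CPM (-1.38, -1.46 to -1.30). *Urod*, at 153 against 252 CPM, and *Cpox*, at 582 against 886 CPM, were lower by less than 2-fold, though *Urod* passed it with free RNA subtracted (-1.06), which makes 5 of the 8. The neural-like level taken away there includes expression of those cells themselves. *Fech* stood at 153 CPM (144 to 162) against 145 CPM (139 to 152), so the intervals of the final enzyme overlapped in this globin class, and *Alas1* rested on 33 and 40 UMIs.

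Within the bin of 3 to 10% the median globin share was still 3.87% in tdTom+ and 7.29% in tdTom- cells. With tdTom- cells weighted to the globin shares of tdTom+ cells in steps of 1 percentage point, an alternative chosen after the data were seen, the same 4 genes remained at least 2-fold lower. The log2 folds became -1.42 for *Alas2*, -1.89 for *Uros*, -1.23 for *Ppox* and -1.15 for *Alad*, and moved to -0.52 for *Urod*, -0.27 for *Cpox* and 0.41 for *Fech*. The closer match thus brought *Alas2* nearer and left *Uros* where it was.

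**Figure D2:**
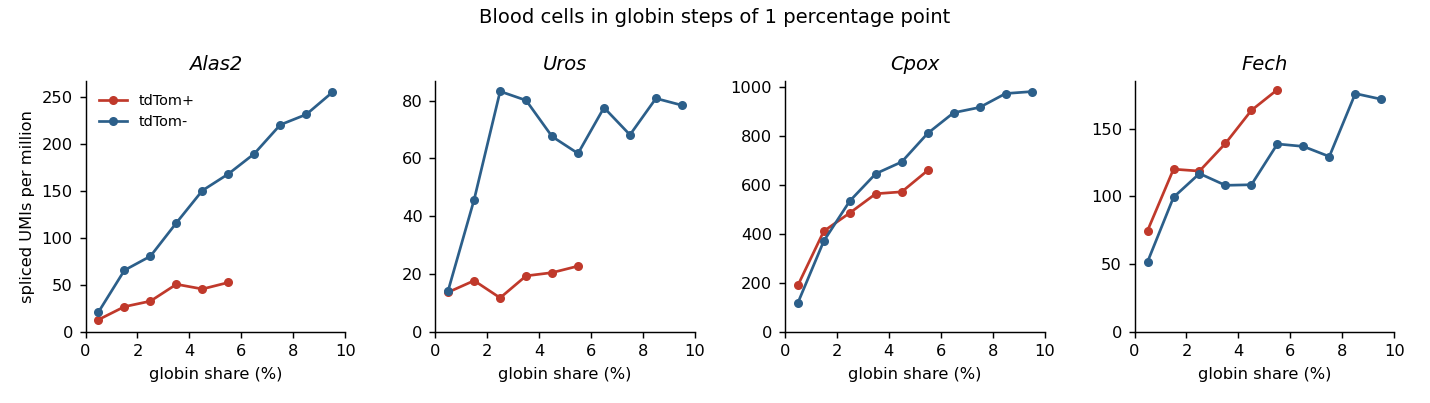
CPM of spliced UMIs (vertical axis) of 4 enzyme genes in blood cells grouped in globin steps of 1 percentage point (horizontal axis, middle of each step), tdTom+ in red and tdTom- in blue, for steps with at least 20 cells. From 1% globin on, the tdTom+ points of *Uros* lie at 11.7 to 22.7 CPM and those of tdTom- at 45.7 CPM or above, while *Fech* is higher in tdTom+ in every step that both fractions share (139 against 108 CPM at 3 to 4%). At 2 to 3% the *Fech* points are almost level, at 119 against 117 CPM, with 45 UMIs in tdTom-. No intervals are drawn.

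Along the globin bins themselves, the wildtype fraction showed the 7 genes other than *Alas1* at higher levels with more globin. Between the bins under 1% and 10 to 30% of tdTom- blood cells, 7 of the 8 genes were at least 2-fold higher, where 3.64% of all genes were, with log2 folds from 1.58 for *Urod* to 3.93 for *Alas2* and 3.19 for *Cpox*. Only 11 of the 86 cells of the lowest bin were erythroid-like, against 636 of 636 in the highest. Cell class and globin share thus cannot be told apart in these folds. *Alas2* went from 21.1 CPM over 72.1 and 205 to 322 CPM. *Alas1* was at 8.16 CPM (4.22 to 14.3), 2.25, 2.98 and 2.58 CPM (1.78 to 3.62) over the 4 bins, so no decline showed from 1% globin on. Its value under 1% rests on 12 UMIs in the mixed bin described above, and that at 1 to 3% on 2 UMIs.

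The steps were not alike. From 1 to 3% to 3 to 10% globin in tdTom- cells, *Alas2* was 1.51 higher on the log2 scale, *Alad* 1.05 and *Cpox* 1.00, but *Uros* only 0.26 (-0.14 to 0.68). From 3 to 10% to 10 to 30%, *Alas2* was still 0.65 higher, while the other 6 genes that increased lay between 0.22 (*Alad*) and 0.40 (*Fech*), where the median of all genes was -0.16. *Uros* thus stood at 62.0 CPM (46.7 to 80.6) at 1 to 3% globin and 87.7 CPM at 10 to 30%, where *Alas2* went from 72.1 to 322 CPM.

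In the *Gata1*- fraction the same 7 genes were also higher with more globin. Between under 1% and 3 to 10% globin of tdTom+ blood cells, 4 of the 8 were at least 2-fold higher, where 1.13% of all genes were: *Alas2* (log2 fold 2.01, 1.75 to 2.27), *Cpox* (1.61), *Alad* (1.16) and *Fech* (1.03). Between the same bins of tdTom- cells the log2 folds were 3.28 for *Alas2*, 2.91 for *Cpox*, 2.51 for *Alad* and 1.49 for *Fech*. For *Uros* they were 0.56 (0.24 to 0.88) in tdTom+ and 2.37 (1.75 to 3.07) in tdTom- cells, and for *Ppox* 0.98 and 2.48. The increases are set side by side and not compared, since the median globin share of the upper bin was 3.87% in tdTom+ and 7.29% in tdTom- cells and the makeup of the lowest bin differs too. With tdTom- cells weighted as above, *Fech* of the upper bin was at 115 CPM in place of 145 CPM and *Alas2* at 139 CPM in place of 205 CPM.

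The sub-clusters show the spread within each fraction. *Alas2* ran from 141 CPM in the erythroid-like sub-cluster led by *F10* and *Cited4* to 498 CPM in the one of 53 cells led by *Cdkn1a*, all tdTom-, and *Cpox* from 718 to 1119 CPM. Among blood progenitor-like sub-clusters of tdTom+ cells *Alas2* ran from 10.2 CPM, in the one led by *Spi1*, *Rac2* and *Arhgdib*, to 39.8 CPM, in one led by *Slc32a1*, *Car2* and *Homer2*, and *Cpox* from 122 to 559 CPM. The ranges of the 2 classes did not overlap for *Alas2* or *Cpox*. *Fech* overlapped: it was at 89.8 to 136 CPM in the blood progenitor-like and at 116 to 239.5 CPM in the erythroid-like sub-clusters.

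Myeloid-like tdTom+ cells (87 cells) had *Alas2* at 1.34 CPM and *Cpox* at 20.7 CPM but *Alas1* at 24.7 CPM, the highest *Alas1* level among the haemato-endothelial sub-clusters. Megakaryocyte-like tdTom- cells (51 cells) had *Alas2* at 27.6 CPM, *Urod* at 154 CPM and *Cpox* at 127 CPM. Their *Alas2* lay within the range of the blood progenitor-like sub-clusters, and their *Urod* above the range of those (99.9 to 128 CPM).

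Unspliced UMIs, which come from precursor RNA and from priming inside introns, gave a second readout of the same cells. As CPM of unspliced UMIs, *Alas2* was at 34.5 in tdTom+ and 182 in tdTom- blood cells (log2 fold -2.40, -2.67 to -2.14), *Uros* at 19.1 and 67.2 (-1.81), *Alad* at 18.2 and 77.7 (-2.09) and *Cpox* at 94.5 and 230 (-1.28). *Fech*, with 1156 and 1431 unspliced UMIs, was at 257 and 456 (-0.83, -0.94 to -0.71). Over all blood cells the unspliced intervals of the 7 genes other than *Alas1* lay below 0, and that of *Alas1* (-0.19 to 0.98) held 0. Of the 6 genes with at least 100 unspliced UMIs 5 had an interval below 0, where 28.5% of 7400 genes compared did, and their median log2 fold was -1.55 (all genes -0.05). Within globin bins the layers were less alike. At 3 to 10% globin the unspliced log2 folds of *Alas2* (-1.54), *Alad* (-1.63), *Uros* (-1.79) and *Urod* (-1.88) had intervals below 0, while those of *Cpox* (-0.22, -0.50 to 0.06) and *Ppox* (-0.94, -2.74 to 0.55, on 5 and 17 UMIs) held 0. The share of all genes with an unspliced interval below 0 was not counted within globin bins. *Fech* was at -0.20 (-0.40 to -0.01) there against 0.08 in the spliced layer, and at 1 to 3% it was at 0.70 (0.07 to 1.40) against 0.16.

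**Figure D3:**
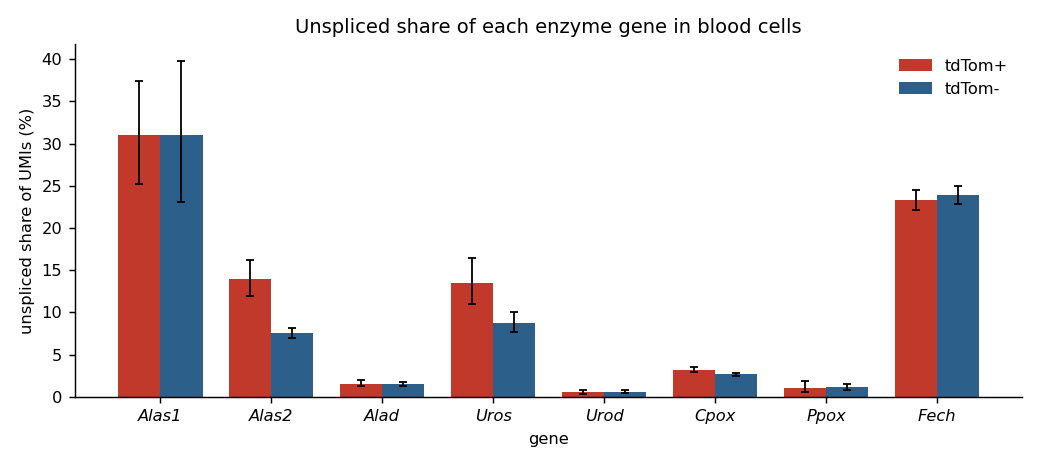
Unspliced share of UMIs (vertical axis, percent, from 0) of each enzyme gene (horizontal axis) in tdTom+ (red) and tdTom- (blue) blood cells, with exact 95% counting intervals and 1 library a fraction. *Alas2* (14.0% and 7.58%) and *Uros* (13.5% and 8.79%) have the higher share in tdTom+ cells, and *Fech* is at 23.3% and 23.9%.

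The share of UMIs that was unspliced was 6.58% (6.30 to 6.86) for the 8 genes together in tdTom+ and 4.67% (4.52 to 4.83) in tdTom- blood cells, where all genes together gave 11.3% and 9.90%. For *Alas2* it was 14.0% (12.0 to 16.2) against 7.58% (6.99 to 8.20) and for *Uros* 13.5% (10.9 to 16.4) against 8.79% (7.69 to 9.99). *Cpox* had 3.18% (2.89 to 3.50) against 2.67% (2.48 to 2.87), and *Alad*, *Urod*, *Ppox*, *Fech* and *Alas1* had overlapping intervals. *Alas2* at 3 to 10% globin had 11.6% (8.65 to 15.04) against 8.24% (7.28 to 9.29), so at this globin class the intervals overlapped. The same held for *Uros*, at 10.1% (5.86 to 15.8) against 8.99% (7.36 to 10.8). At 1 to 3% globin the *Alas2* share was lower in tdTom+ cells, at 16.0% (12.8 to 19.6) against 25.6% (16.8 to 36.1), again with overlap. Shares differ between genes with the length and letters of their introns, so those of single genes are compared here only within a gene. The share of the 8 together also depends on how much each gene adds. *Fech* held 3805 of their 28567 spliced UMIs in tdTom+ and 4564 of 67380 in tdTom- blood cells. With the genes weighted equally the gap between fractions narrowed, as given in the closing section. *Alas2* overlaps *Apex2* and *Uros* overlaps *Bccip* on the opposite strand. In non-blood cells (tdTom+ and tdTom-) the CPM of unspliced UMIs was 8.33 and 9.10 for *Alas2* and 9.83 and 10.3 for *Uros*. In blood cells it was 34.5 and 182 for *Alas2* and 19.1 and 67.2 for *Uros*. The part of such a level in the higher tdTom+ shares was not tested.

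Outside blood the 7 genes other than *Alas1* were at a lower level in every class of at least 50 cells. In tdTom- cells 7 of the 8 genes were at least 2-fold higher in blood than in non-blood cells, where 4.76% of all genes were, with log2 folds from 1.88 for *Urod* to 6.56 for *Alas2*. With free RNA subtracted the count was 6, because *Ppox* then had no fold: its level in neural-like cells, which was taken away, was 14.2 CPM against 14.1 CPM in non-blood cells. In tdTom+ cells 5 of the 8 were, where 7.20% of all genes were: *Alas2* (5.50), *Fech* (3.08), *Cpox* (3.05), *Ppox* (1.59) and *Uros* (1.41). *Alas1* was lower in blood than in non-blood cells of both fractions, at 3.05 against 10.8 CPM in tdTom- cells and 4.59 against 9.84 CPM in tdTom+ cells. Its log2 folds, -1.83 in tdTom- and -1.10 in tdTom+ cells, stood only at percentiles 28.8 and 28.1 of the genes compared. The median over all genes was -0.66 in tdTom- and -0.31 in tdTom+ cells, so a lower level in blood was not particular to *Alas1*.

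**Figure D4:**
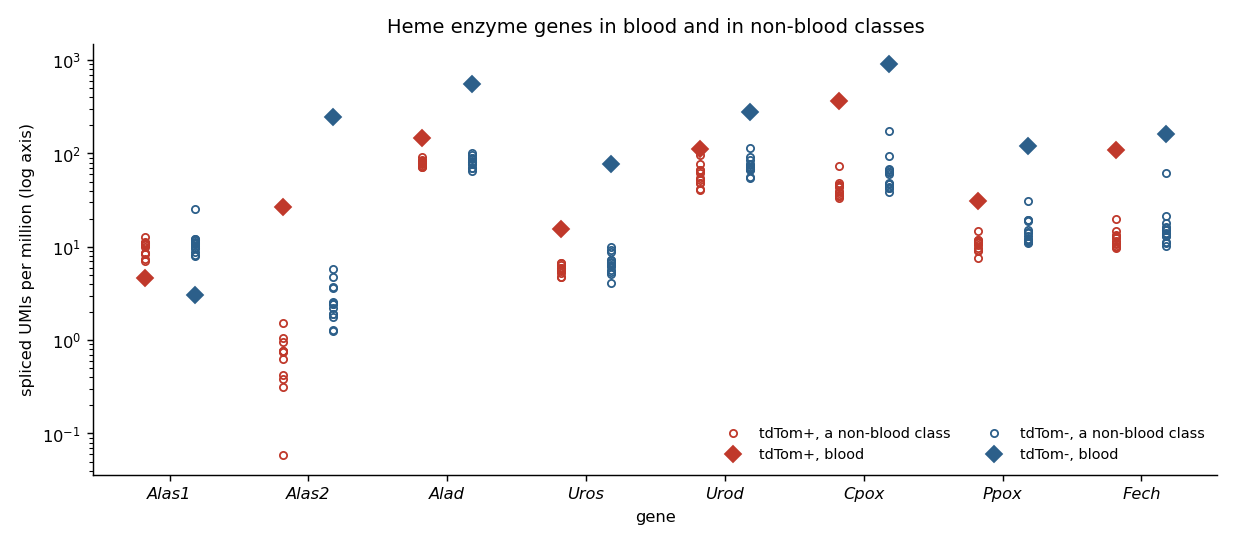
CPM of spliced UMIs (vertical log axis) of each enzyme gene (horizontal axis) in blood (diamonds) and in each non-blood class of at least 50 cells (circles, 12 in tdTom+ and 14 in tdTom-), tdTom+ in red and tdTom- in blue. Within each fraction the blood value lies above every class shown for 7 genes and below every class shown for *Alas1*.

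Across non-blood classes the highest levels of *Cpox* and *Fech* were in cardiomyocyte-like and visceral endoderm-like cells. *Alad* ran from 71.4 to 92.8 CPM over 12 tdTom+ classes and from 65.4 to 102 CPM over 14 tdTom- classes. *Urod* had its lowest tdTom+ level in mesenchyme-like cells, at 40.9 CPM, and was highest in presomitic mesoderm-like cells of both fractions, at 96.9 CPM (88.6 to 106) and 116 CPM (107 to 125). *Cpox* and *Fech* were highest in cardiomyocyte-like cells of tdTom+, at 73.5 CPM (68.2 to 79.2) and 19.7 CPM, and second highest in tdTom-, at 93.6 and 21.3 CPM.

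Visceral endoderm-like cells of the host (62 cells), marked by *Apoa1*, *Ttr* and *Afp*, had the highest *Cpox* of the tdTom- classes at 172 CPM (151 to 195), and the highest *Fech* at 61.7 CPM (49.3 to 76.3), *Ppox* at 31.2 CPM (22.6 to 42.1) and *Alas1* at 25.4 CPM (17.7 to 35.3). Their *Alas2* was at 3.63 CPM (1.18 to 8.47, 5 UMIs), against a median of 2.43 CPM over the tdTom- classes. This class thus stood high in *Alas1* and the mitochondrial enzymes while its *Alas2* interval covered that median, and its 8 tdTom+ cells were too few to compare.

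Between fractions, all 8 genes were lower in tdTom+ non-blood cells with counting intervals below 0, where 34.5% of all genes had such an interval. By percentile of the folds of all genes, *Alad* stood near the middle, at the 46.7th. *Alas1* (30.7th), *Fech* (28.7th), *Uros* (24.0th), *Cpox* (13.7th), *Urod* (12.8th), *Ppox* (7.86th) and *Alas2* (0.478th) stood lower. The non-blood cells also differ in makeup between fractions, with 1000 neural-like cells in tdTom+ and 1637 in tdTom-. Of the 8 genes 1 was at least 2-fold lower in tdTom+ non-blood cells, where 1.90% of all genes were: *Alas2*, at 0.596 CPM (66 UMIs) against 2.57 CPM (277 UMIs), a log2 fold of -2.11 (-2.52 to -1.72). The other 7 lay between -0.45 (*Ppox*) and -0.06 (*Alad*), against a median of -0.05 over all genes. In neural-like cells *Alas2* had 1 UMI (tdTom+) against 65 UMIs (tdTom-) (log2 fold -5.46, -10.78 to -2.93), and *Ppox* was at 9.19 against 14.2 CPM (-0.63, -0.91 to -0.35), at the 1.61th percentile of the genes compared. There *Alad* and *Cpox* also had intervals below 0, and the other 4 genes held 0. The share of all genes with such an interval was not counted in neural-like cells. The unspliced UMIs of *Alas2* in non-blood cells were 145 and 163, or 8.33 and 9.10 CPM of unspliced UMIs (log2 fold -0.13, -0.46 to 0.21), so the fractions were apart in the spliced layer and not detectably so in the unspliced one. Median globin shares of non-blood cells were 0.0150% and 0.0814%, and the part of free RNA in the *Alas2* difference was not tested.

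In endothelial-like cells *Alas2* had 5 UMIs (tdTom+) against 31 UMIs (tdTom-), and *Alas1* was at 11.5 and 11.4 CPM. *Cpox* was at 49.4 CPM (44.9 to 54.2) against 82.1 CPM (75.1 to 89.6) and *Urod* at 37.6 against 53.3 CPM, both lower in tdTom+ by less than 2-fold. *Uros* was further apart, at 2.35 CPM (21 UMIs) against 6.83 CPM (42 UMIs), a log2 fold of -1.54 (-2.37 to -0.75), under the minimum of 100 UMIs. The log2 fold of *Alas1* here was 0.02 (-0.43 to 0.48).

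**Figure D5:**
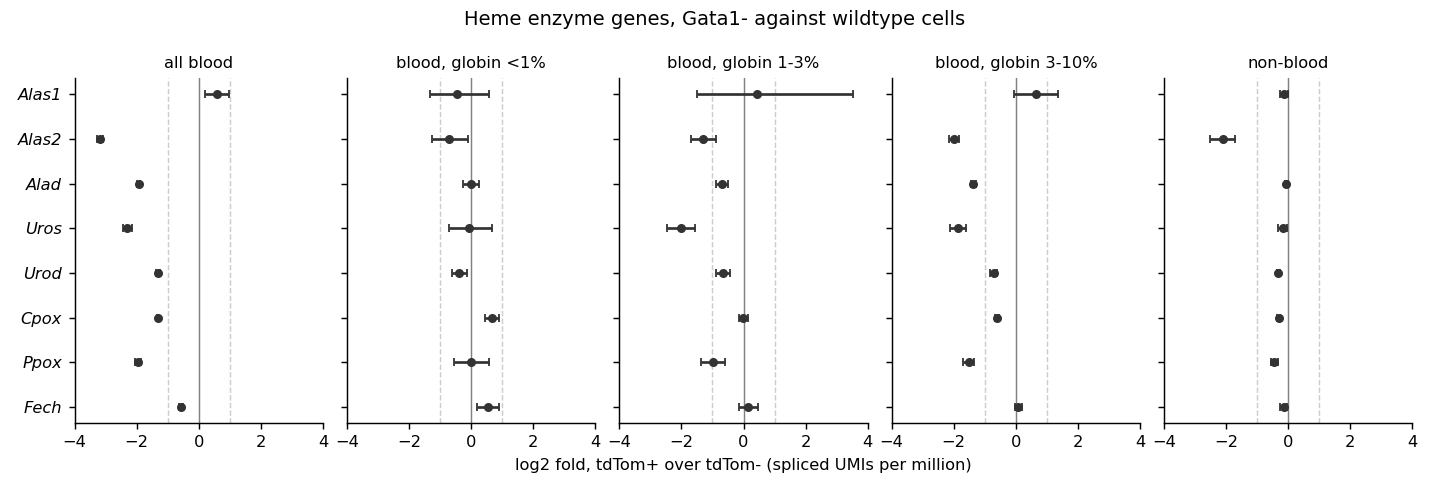
Log2 fold of tdTom+ over tdTom- (horizontal axis, CPM of spliced UMIs) of each enzyme gene (rows) in all blood cells, in the 3 globin bins that both fractions share and in non-blood cells, with exact 95% counting intervals, a line at 0 and dashed lines at 2-fold. In all blood cells 6 genes lie beyond 2-fold lower, none does under 1% globin, and *Alas2* alone in non-blood cells.

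The levels of *Alas1* and *Alas2* ran opposite to each other over cell groups. Over 81 groups (each cluster or haemato-endothelial sub-cluster in each fraction with at least 50 cells) Pearson's r of log2(CPM + 10) was -0.65 between them, while *Alas2* had r of 0.95 with *Uros*, 0.93 with *Cpox*, 0.91 with *Alad*, 0.89 with *Ppox*, 0.88 with *Fech* and 0.87 with *Urod*. Groups of 1 library share its depth and free RNA, so these are descriptions. Among the 5 genes of 9857 most like *Alas2* were *Trim10* (0.99), *Epb42* (0.98), which encodes a protein of the red cell membrane, and *Mrap* (0.97), and the 5 most like *Alas1* were *Wasl*, *Hpcal1*, *Pgm3*, *Tmem55b* and *Mfsd1*, at 0.70 to 0.73. The neighbours of *Alas2* in this order hence include a red cell membrane gene, and *Alas1* had no neighbour as close. *Alas1* lay at only 7.02 to 12.6 CPM over the tdTom+ and 7.88 to 25.4 CPM over the tdTom- non-blood classes. These levels are near the 10 CPM added before the log. The part of counting error and of that addition in its lower r was not tested.

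The genes around the pathway were counted from a list of 35 found in the tables, which carry heme and its precursors, supply mitochondrial iron and iron-sulfur clusters, or break heme down. In blood cells 8 of the 34 that could be compared were at least 2-fold lower in tdTom+ cells, where 3.17% of all genes were. A further 4 of the 34 were at least 2-fold higher, which is near the background of 11.5% of all genes. The median log2 fold was -0.33 (all genes 0.22). The lowest were *Hebp1*, a heme-binding protein (9.83 against 203 CPM, log2 fold -4.37), *Slc25a37*, the mitochondrial iron importer mitoferrin (39.3 against 408 CPM, -3.38), and *Tmem14c*, which carries porphyrin into the mitochondrion (564 against 2623 CPM, -2.22). The highest were *Slc48a1*, a heme transporter of the lysosome (116 against 9.94 CPM, 3.54), *Hmox1*, the inducible heme oxygenase (21.7 against 3.85 CPM, 2.50), and *Hebp2* (5.47 against 1.82 CPM, 1.59).

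At 3 to 10% globin 6 of 32 such genes were at least 2-fold lower (3.63% of all genes were) and 3 at least 2-fold higher in tdTom+ cells (4.39% of all genes were), with a median of -0.20 (all genes 0.05). *Hebp1* (-3.11), *Slc25a37* (-2.40) and *Tmem14c* (-2.02) again stood lowest, and *Slc48a1* (3.38), *Hmox1* (2.02) and *Hscb*, an iron-sulfur co-chaperone (1.11), highest. Under 1% globin 2 of 32 were at least 2-fold lower and 1 higher, where 3.73% and 2.78% of all genes were: *Hebp1* (-1.12) and *Tmem14c* (-1.11), and *Slc48a1*, at 103 against 23.1 CPM (2.16), with *Slc11a2* (-0.83), *Tfrc* (0.75) and *Shmt2* (0.65) next. Both counts lie near those shares of all genes and are not read as a result for the list. In this bin 485 of 686 tdTom+ cells but 5 of 86 tdTom- cells were blood progenitor-like. *Slc48a1* was among the leading genes of blood progenitor-like sub-clusters, and the part of cell class in its fold was not tested.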

How the data were processed

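Cells of 6 pooled chimeric embryos were sorted into 1 tdTom+ and 1 tdTom- library. The authors mapped reads to mm10 (GRCm38) with Cell Ranger 3.0.2, called cells with emptyDrops, removed poor ones by a mixture model, and ran velocyto to count spliced and unspliced UMIs apart. The deposited values are UMI counts that were not normalized: all values above 0 in the 2 tables were whole (0 were not), over 18233 cells and 29453 genes. The percent of UMIs on mitochondrial genes, deposited by the authors with other quality metrics, had medians of 2.07% and 2.08%. The totals per gene that they deposited (counts over all cells) were read only beside the gene identifiers, and their cell types were not used.

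Groups were rebuilt with Python 3.11.15, scanpy 1.11.5, numpy 2.4.6 and scipy 1.17.1. Scrublet called 377 and 518 doublets, and 9 and 8 more cells of a cluster with over 50% called cells were left out. Clusters (Leiden resolution 1.5, haemato-endothelial cells again at 1) were named where at least 3 listed markers were raised 2-fold, leaving out 53 genes (members, pathway list, globins) from the clustering. A sub-cluster was blood if it was not named endothelial-like and had more blood than endothelial markers raised. The unnamed blood sub-cluster of 137 cells had 6 endothelial markers raised. Globin share counts 10 globin genes.

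Values are UMIs summed over cells, as CPM of all spliced UMIs of those cells (35289215 in tdTom+ and 28558321 in tdTom- blood cells). Intervals of CPM are exact Poisson, of shares Clopper-Pearson, and of folds exact conditional ones. A difference was counted at 2-fold, and genes entered the background with at least 100 UMIs in both groups together. The fold intervals were run on counts simulated as Poisson from the summed counts of blood cells. That simulation has no variation between cells or libraries, so it checks the calculation only and not how well the intervals cover such variation. Named genes were all members, *Gata1*, the 3 highest and 3 lowest of the pathway list per comparison counted, and the 5 genes most like *Alas1* and *Alas2* among those with at least 1000 UMIs, of which 2 are not reported here. The members and lists were chosen with earlier results of these data known. Gene overlaps come from GENCODE vM21. *Fech* had no sequence printed.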

Additional observations from a re-analysis of the deposited data

Results flagged for a closer look

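*Alas1* had log2 folds of tdTom+ over tdTom- on opposite sides of 0, at 0.59 in blood and -0.14 in non-blood cells, with counting intervals that exclude 0 in both. The blood value rests on 162 and 87 UMIs. *Cpox* had a log2 fold of 0.68 in blood cells under 1% globin and of -0.61 at 3 to 10% globin, again with intervals that exclude 0. In both cases the difference between the groups was not tested, since each fraction is 1 library. Outliers among samples could not be looked for with 1 library a group.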

How the results depend on the processing

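The count of 6 genes at least 2-fold lower in tdTom+ blood cells, and of 7 higher in the highest than in the lowest globin bin of tdTom- cells, were found under every alternative run for them, and the count of 7 higher in tdTom- blood than non-blood cells became 6 with free RNA subtracted, where *Ppox* gave no value. The median log2 fold of the 8 genes was -1.75 as CPM of non-globin UMIs and -2.28 with free RNA subtracted, where *Alas1* gave no value. With free RNA subtracted 11 of 24 pairs of gene and shared bin were 2-fold lower in place of 6, and the neural-like level taken away includes what those cells express themselves. The *Alas2* share of synthase UMIs was 83.1% and 98.3% (tdTom+ and tdTom-) with doublets kept, 82.5% and 98.4% with unspliced UMIs added, and 88.4% in tdTom+ without myeloid-like and megakaryocyte-like cells. The unspliced share was 11.03% and 9.64% with the genes weighted equally, so the gap between fractions narrowed. For *Cpox* under 1% globin, the log2 fold ran from 0.37 to 1.04 over 9 alternatives. In that bin the log2 folds of *Alad* (-0.02) and *Ppox* (-0.02) became 0.45 and 0.76 with free RNA subtracted. *Alas1* at 3 to 10% globin, 0.65, became -0.36 with cells thinned to 5000 UMIs. The comparison of the highest with the lowest globin bin was not run with free RNA subtracted, doublets kept or means over cells. The alternatives that match globin in steps of 1 percentage point and that leave out the unnamed sub-cluster were chosen after seeing the data. No paired analysis was possible because each group has 1 library, and for the same reason no library could be left out. Depth limits *Alas1* in the shared bins, where it had 2 to 87 UMIs.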
